A study of Mus musculus with 2 samples.

Results

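The genes described here encode the proteins of the cytosolic ribosome. They were chosen by symbol: Rpl or Rps followed by a number, with or without a suffix letter, and Rplp0, Rplp1, Rplp2 and Rpsa, leaving out the Rps6k kinases. The rule took 84 of the 27998 genes listed. Of these, 83 had at least 1 UMI (unique molecular identifier, 1 counted RNA molecule) in a kept cell of each library, and Rpl10l had none in either. MC38, a mouse colon carcinoma line, was grown in the skin of C57BL/6 mice at 4 sites per mouse for 7 days. The tumours were then injected with a control or an anti-PD-1 antibody, the latter a blocker of a T cell checkpoint receptor, at 200 µg per mouse per day, and were harvested on day 10. Viable CD45+ cells, that is leukocytes, were sorted and sequenced by droplet 3′ RNA counting as 1 control and 1 anti-PD-1 library. How many mice went into a library is not stated in the labels. There was no replicate and so no test between conditions, and every interval below covers counting error only.

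The ribosome is built from ribosomal RNA and these proteins, in a small subunit (Rps genes) that reads the message and a large subunit (Rpl genes) that joins amino acids. The acidic P stalk proteins of the large subunit, Rplp0, Rplp1 and Rplp2, recruit the translation factors. Messages for ribosomal proteins usually begin at a cytosine followed by a run of pyrimidines, the 5′ terminal oligopyrimidine (TOP) tract, through which mTOR signalling controls their translation together. Lymphocytes enlarge their ribosome pool when they are activated, and mature neutrophils keep few ribosomes.

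The starts of 6 members are shown because the results turn on these genes. Rpl35 was the lowest against control in most classes. Rps27 and Rps27l are paralogs whose highest and lowest classes were exchanged. Rpl15, Rpl38 and Rps28 were among the highest in anti-PD-1 myeloid cells. Each line gives 20 bases before and 20 from the annotated start on the gene's own strand, 5′ to 3′, from RefSeq on GRCm38.p6, with a TOP run in capitals where a start at C opens at least 5 pyrimidines.
Rpl35, chr2:39005112-39005151, minus strand: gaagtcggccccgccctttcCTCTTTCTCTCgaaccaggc
Rps27, chr3:90213629-90213668, minus strand: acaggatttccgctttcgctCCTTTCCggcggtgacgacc
Rps27l, chr9:66946066-66946105, plus strand: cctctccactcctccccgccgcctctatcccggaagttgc
Rpl15, chr14:18270967-18271006, minus strand: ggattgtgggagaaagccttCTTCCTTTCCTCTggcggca
Rpl38, chr11:114668560-114668599, plus strand: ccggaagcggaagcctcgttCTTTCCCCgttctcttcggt
Rps28, chr17:33824543-33824582, minus strand: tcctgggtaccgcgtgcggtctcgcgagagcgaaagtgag

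The table of starts held 63 of the 84 members, and 13 of those (20.6%) had such a run at an annotated start, against 3.01% of the 27025 genes in that table. The run was 11 bases in Rpl35, 13 in Rpl15, 8 in Rpl38 and 7 in Rps27. A start without the run says only that these letters are not at the annotated base. The 13 members with a run had a median log2 ratio of anti-PD-1 over control of -0.34 in CD8 T cells and 0.27 in monocytes. Those without had -0.29 and 0.12. Runs were thus found both in the lowest member, Rpl35, and in members near the top, such as Rpl38.

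Barcodes with at least 1000 UMIs and at most 10% mitochondrial UMIs were kept: 1174 cells (median 3287 UMIs, 4718746 in all) in control and 3321 cells (median 2763 UMIs, 12068667 in all) in anti-PD-1. Only 4 barcodes occurred in both libraries. Cells were put into 11 classes by UMIs of marker genes. Some genes that no gate used were looked at, with levels in UMIs per 1000000 UMIs of the class (CPM), control first. Gzma, Prf1 and Eomes together were highest in NK cells, at 6986 and 10901 CPM. Apoe was highest in macrophages, at 12150 and 5249 CPM, but control monocytes also had 5527. Ly6c2, Plac8 and Ccr2 together were highest in monocytes, at 11264 and 12807 CPM. They were not confined to them: CD8 T cells had 3040 and 5809 CPM and macrophages 3328 and 2917. Ptprc, which encodes CD45, lay between 284 and 775 CPM in the 6 classes compared below, and markers of tumour epithelium and fibroblasts summed to at most 32 CPM in any of them. Cells passing gates of different classes (33 and 74) and cells passing none (97 and 188) were kept out. The 6 classes compared below each had at least 50 cells in both libraries: CD8 T, regulatory T, other T, NK, macrophage and monocyte.

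Ribosomal protein genes made up 26.8% of all UMIs in control and 24.9% in anti-PD-1. Lymphocytes gave them the larger part of their RNA. In control the share was 36.3% in NK cells, 34.8% in other T cells, 34.3% in CD8 T cells, 24.0% in regulatory T cells, 18.9% in monocytes and 18.5% in macrophages. In anti-PD-1 it was 31.6% in NK cells, 29.0% in other T cells, 28.2% in CD8 T cells, 23.3% in regulatory T cells, 21.6% in monocytes and 19.7% in macrophages. The order of the 6 classes was thus alike in both libraries, and the distance between the lymphoid and myeloid ends was smaller in anti-PD-1. The share of these genes in barcodes of 10 to 50 UMIs, which hold mostly free RNA, was 21.1% in control and 18.8% in anti-PD-1.

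Against all T cells of the same library (28.4% in control, 27.3% in anti-PD-1), the log2 ratio of NK cells was 0.36 and 0.21, control first. Macrophages were at -0.62 and -0.47 and monocytes at -0.58 and -0.34. Each kept its direction under all 8 alternative settings. The T cell total mixes regulatory T cells, which were low, with the other T classes, and regulatory T cells were 14.7% of control cells but 11.2% of anti-PD-1 cells, while CD8 T cells were 5.28% and 30.1%.

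**Figure D1:**
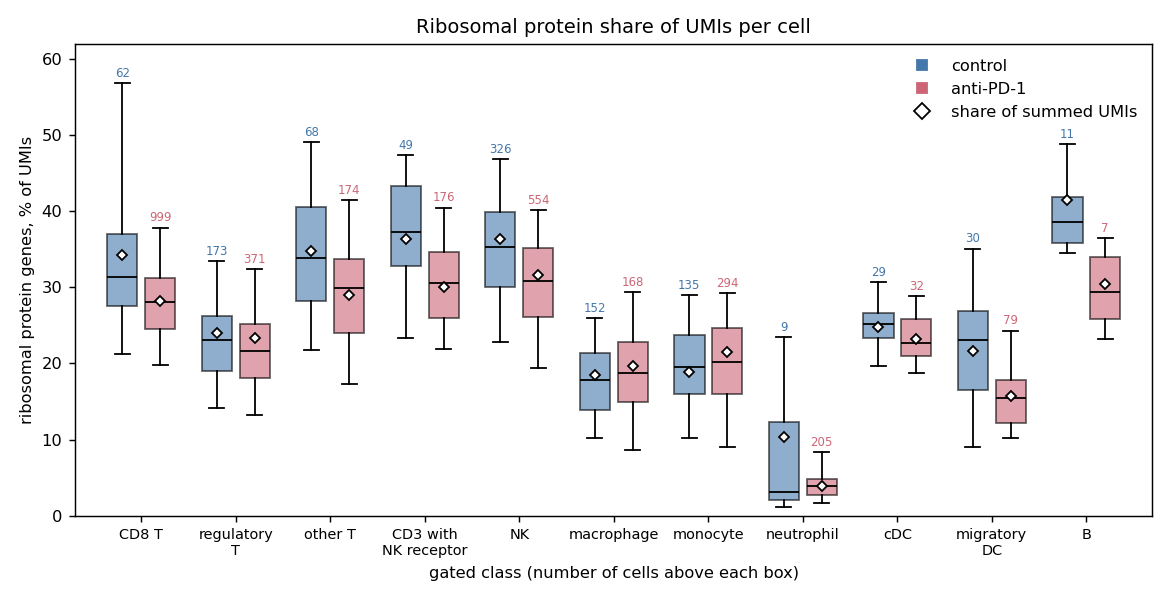
Share of UMIs on ribosomal protein genes per cell (y axis, %) by gated class (x axis) for control (blue) and anti-PD-1 (red); boxes are quartiles with the median line, whiskers the 5th to 95th percentile of cells, open diamonds the share of the summed UMIs, and numbers the cells. Neutrophils lie lowest, with 3.91% of summed UMIs in anti-PD-1, and the NK and T classes other than regulatory T cells lie above the macrophages and monocytes.

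The smaller classes extended the range. B cells had the largest share in control, 41.5% in 11 cells, and 30.4% in 7 anti-PD-1 cells, where NK cells were higher. Cells with both CD3 and NK receptor UMIs had 36.3% (49 cells) and 30.0% (176 cells). Conventional dendritic cells had 24.7% and 23.2%, and migratory dendritic cells 21.7% and 15.7%. Neutrophils had the least: 10.3% in only 9 control cells, whose median cell had 3.06%, and 3.91% (95% Clopper-Pearson interval 3.85 to 3.96) in 205 anti-PD-1 cells.

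Between the libraries, among the 6 classes with enough cells, the 4 lymphoid ones were lower in anti-PD-1 and macrophages and monocytes slightly higher. The neutrophils and both dendritic cell classes given above were lower in anti-PD-1, on few control cells. The log2 ratio of the share was -0.28 in CD8 T cells, -0.26 in other T cells and -0.20 in NK cells. These 3 classes kept that direction under every alternative setting, within -0.32 to -0.21, -0.28 to -0.12 and -0.27 to -0.18. In regulatory T cells it was -0.04, and the direction turned under 2 of 9 settings. Macrophages had 0.09 and monocytes 0.19, and both turned under 2 settings. With 1 library per condition, a difference between conditions and one between libraries cannot be told apart.

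The CD8 T value did not hold at every depth. Cells of 1000 to 2000 UMIs had 27.3% in control (9 cells) and 27.4% in anti-PD-1 (177 cells). Those of 2000 to 4000 UMIs had 36.4% and 29.2%, and deeper ones 32.3% and 27.2%. NK cells were lower in anti-PD-1 in each depth range: 30.3% and 27.9%, then 36.4% and 32.2%, then 37.7% and 32.8%.

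**Figure D2:**
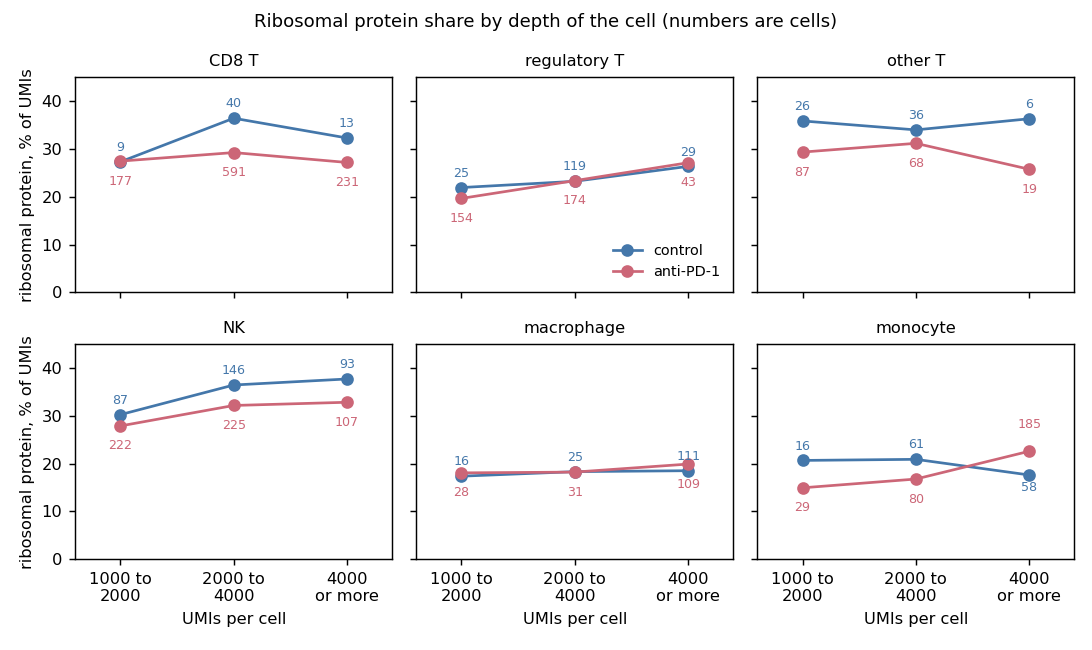
Ribosomal protein share of summed UMIs (y axis, %) in 3 ranges of UMIs per cell (x axis) for the 6 classes; blue is control, red anti-PD-1, and numbers are cells. NK cells are lower in anti-PD-1 in each range, while the monocyte lines cross: 20.9% against 16.8% at 2000 to 4000 UMIs and 17.6% against 22.6% at 4000 or more.

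Within the CD8 T class the share was lower in cells with a UMI of an effector gene. Cells without a UMI of Gzmb, the cytotoxic protease granzyme B, had 38.3% in control and 34.2% in anti-PD-1. Cells with one had 31.7% and 27.6%, so the classes split by Gzmb in the same direction in both libraries. The cells with Gzmb numbered 35 and 888, those without 27 and 111. The summed level of Gzma, Prf1 and Eomes was 324 and 1822 CPM, and that of the cycling list 367 and 1036 CPM. Their part in the CD8 T difference was not tested beyond these splits. Among NK cells the split ran the other way. Those with a UMI of Gzmc to Gzmg, granzymes of activated killer cells, had 38.2% and 34.1%, and those without had 34.9% and 29.0%. These NK groups also differed in depth, with median UMIs of 4383 and 3590 against 2341 and 1935. The NK share rose with depth as given above, and the part of depth in this split was not tested.

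The monocyte class did not hold the same kinds of cells in the 2 libraries. Apoe, a macrophage gene, was at 5527 CPM in control and 562 in anti-PD-1. S100a8 and S100a9, abundant in neutrophils and young monocytes, were at 11.7 and 5315 CPM. The cycling list was at 27.2 and 536 CPM. In anti-PD-1, monocytes with an S100a8 UMI had a ribosomal share of 23.3% (151 cells) and those without had 17.8% (143 cells). Their median UMIs per cell were 7405 and 3683. The anti-PD-1 monocyte share was itself 16.8% at 2000 to 4000 UMIs and 22.6% at 4000 or more. The part of depth in the S100a8 split was not tested. In control, 131 of 135 monocytes had no S100a8 UMI and a share of 19.0%. Among cells without S100a8 the log2 ratio was -0.09, and at 2000 to 4000 UMIs it was -0.32, opposite to the 0.19 of the whole class. The monocyte values below carry this difference in makeup.

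Large-subunit, small-subunit and P stalk messages moved largely together. In CD8 T cells the large subunit genes had 17.4% and 14.7% of UMIs and the small subunit genes 14.9% and 12.1%. The ratio of the large subunit genes, without the P stalk, to the small subunit genes lay between 1.12 and 1.22 in all 6 classes of both libraries. The P stalk went from 1.93% to 1.42% of CD8 T UMIs, a log2 ratio of -0.44 (interval -0.49 to -0.40), and went from 0.945% to 1.21% in monocytes, 0.36 (0.31 to 0.40). Its 3 members had one direction in each class. Rplp0, its scaffold, went from 8187 to 6520 CPM in CD8 T cells and from 3772 to 4969 in monocytes. Rplp1, at 5717 and 4048 CPM in CD8 T cells, had a log2 ratio of -0.50, and Rplp2, at 5403 and 3639, had -0.57.

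Member by member, 81 genes had at least 50 UMIs in the higher library of a class in 5 of the classes, and 80 in other T cells. Rpl3l, Rpl39l and Rpl10l did not. In CD8 T cells 76 of 81 members were lower in anti-PD-1, where 40.7% of the 5259 genes measured were lower. In other T cells 77 of 80 were lower (all genes 34.7%), in NK cells 76 of 81 (all genes 32.4%) and in regulatory T cells 49 of 81 (all genes 42.5%). In macrophages 60 of 81 were higher (all genes 56.4%) and in monocytes 65 of 81 (all genes 59%). The lymphoid counts apart from regulatory T cells thus stood far from the background, while the macrophage count was much nearer to it. The median member was at -0.30 in CD8 T, -0.26 in other T, -0.20 in NK, -0.03 in regulatory T cells, 0.08 in macrophages and 0.15 in monocytes. The median of all genes lay between 0.05 and 0.14 in these classes. Since the members are a large part of the total, their own level pulls every other CPM the other way.

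**Figure D3:**
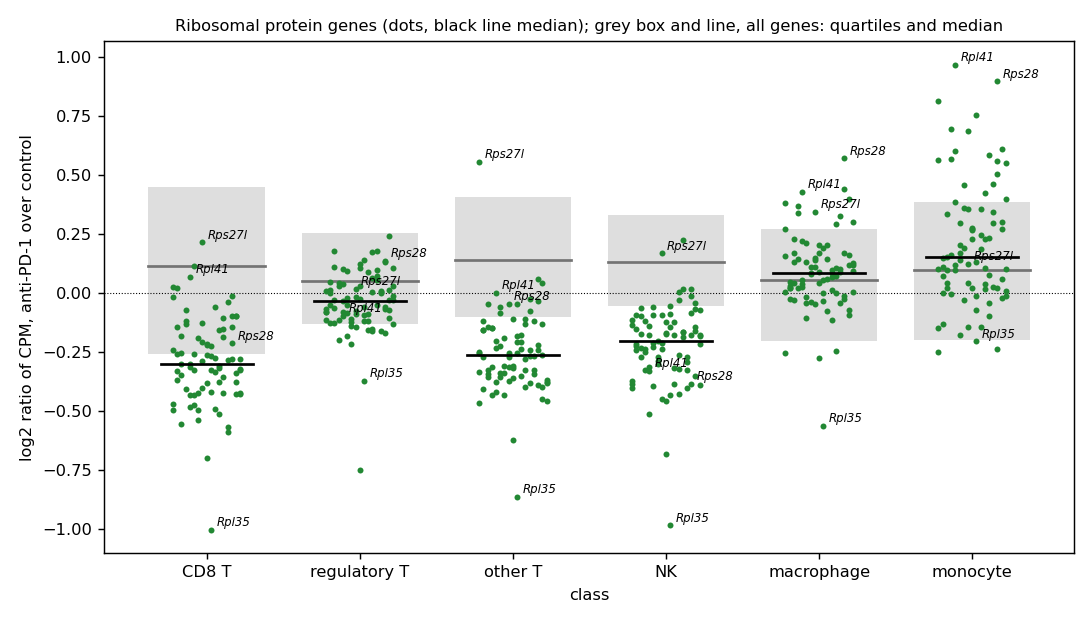
Log2 ratio of CPM, anti-PD-1 over control (y axis), for each ribosomal protein gene (dot) in the 6 classes (x axis); black lines are member medians, grey boxes and lines the quartiles and median of all genes measured. Most dots lie below 0 in CD8 T, other T and NK cells, with Rpl35 near -1.0, and above 0 in monocytes, with Rpl41 at 0.97.

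Under the main setting, single members rarely passed 1.5-fold. Lower by that much were 3 members in CD8 T cells (all genes 11.2%), 1 in regulatory T cells (all genes 1.99%), 2 in other T cells (all genes 2.41%) and 2 in NK cells (all genes 1.37%). Higher by that much were 8 in monocytes (all genes 14%). None was higher by that much in CD8 T (all genes 18.3%), regulatory T (all genes 6.1%), other T (all genes 14.2%) or NK cells (all genes 7.46%) or in macrophages (all genes 5.96%). None was lower by that much in macrophages (all genes 7.22%) or monocytes (all genes 7.72%). The lymphoid shift was therefore a small one spread over most members.

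Rpl35, a large-subunit protein at the exit of the peptide tunnel, was an exception in size. It went from 1000 to 499 CPM in CD8 T cells (log2 ratio -1.0, interval -1.21 to -0.79) and from 1014 to 512 in NK cells (-0.99, interval -1.12 to -0.86). In other T cells it went from 952 to 522 CPM and in regulatory T cells from 530 to 409. In the myeloid classes it was also lower, 743 and 503 CPM in macrophages and 689 and 598 in monocytes. Rpl35 was thus lower in anti-PD-1 in each of the 6 classes, with its ratio between -1.0 and -0.21. Rpl6l, a locus named as a copy of Rpl6 whose reads may be shared with it, was at -0.70, -0.75, -0.62, -0.68 and -0.28 from CD8 T cells to macrophages, in the order of the list of classes, but at 0.27 in monocytes. Rpl6 itself was at -0.26 in CD8 T cells and 0.15 in monocytes.

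Lower in anti-PD-1 in all 6 classes were 9 of 80 members (all genes 3.31%), among them Rpl9, Rpl10, Rpl17, Rpl30, Rpl35, Rps13, Rps14 and Rps24. They are spread over both subunits. Some of these drops were very small: in macrophages Rpl9 was at -0.002 and Rps14 at -0.012 on the log2 scale. In monocytes Rpl30 was at -0.021 (interval -0.15 to 0.11) and Rps24 at -0.029. Rps14, near the messenger channel of the small subunit, went from 4811 to 4084 CPM in monocytes, and Rpl17, at the tunnel exit, from 3286 to 2900. Rpl10, which the large subunit takes up last and which takes part in subunit joining, was lower in CD8 T cells (3533 and 2545 CPM) and in monocytes (4387 and 3682 CPM). The pattern of the whole set, lower in CD8 T, other T and NK cells and higher in both myeloid classes, held for 48 of 80 members (all genes 6.14%).

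The members highest in anti-PD-1 monocytes encode very short proteins. Rpl41, at 25 codons the shortest of all, went from 2837 to 5552 CPM in monocytes (0.97, interval 0.89 to 1.05) and from 3012 to 4057 in macrophages. Rps28, a small-subunit protein of 69 codons, went from 1406 to 2620 CPM in monocytes (0.90, interval 0.78 to 1.01) and from 1251 to 1858 in macrophages. Rpl38, of 70 codons, known for its part in translating Hox messages, was at 926 and 1627 CPM in monocytes. Rps21, of 83 codons, was at 738 and 1244 CPM. In NK cells the same 4 genes went the other way, with Rpl41 at 4768 and 3789 CPM and Rps28 at 1929 and 1476. The highest tested member of more than 120 codons was Rpl15, of 204 codons, at 985 and 1502 CPM in monocytes.

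Of the 80 tested members with a coding length, 19 had at most 120 codons. In monocytes their median log2 ratio was 0.46 and that of the 61 longer members 0.11; among other genes the medians were 0.15 (303 short) and 0.08 (3065 long). In macrophages the medians were 0.17 and 0.05, and among other genes 0.15 and 0.04. In NK cells the short members were the lower ones, -0.33 against -0.17, while short and long other genes had 0.07 and 0.15. Across the members Spearman's rho of ratio and length was 0.69 in NK cells, 0.25 in CD8 T cells and -0.33 in monocytes, over 80 genes that share 2 libraries. Length therefore ordered the members in opposite directions in NK cells and monocytes. The makeup of the monocyte class differed between the libraries as given above, and its part in the length pattern was not tested.

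**Figure D4:**
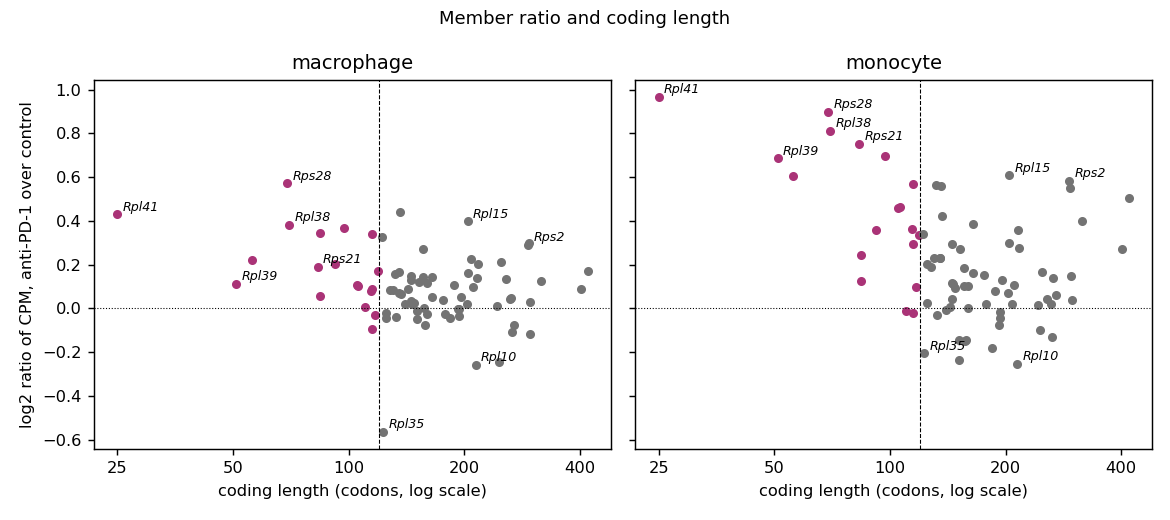
Log2 ratio of CPM, anti-PD-1 over control (y axis), against coding length in codons (x axis, log scale) for the ribosomal protein genes in macrophages and monocytes; purple dots have at most 120 codons (dashed line). In monocytes Rpl41, Rps28, Rpl38 and Rps21 stand at the upper left, between 0.75 and 0.97.

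The composition of the ribosomal messages also differed between classes. To see it, each member was taken as a share of all ribosomal protein UMIs of its class, which removes the total. Of the 84 members, 79 had at least 50 UMIs in every class and library. Their median range over the 6 classes was 0.36 on the log2 scale in control and 0.45 in anti-PD-1, so most members kept close to a fixed share. Over more than 2-fold in both libraries ranged 2 members, Rps29 among them. For 24 of 79 members, the highest class and the lowest class were each the same in both libraries. No all-gene share is given for this count, so it does not show whether such repeats are particular to these members. On the scale of all UMIs, which keeps the total, 15 of 79 ranged over more than 2-fold in both libraries, a smaller part than among all 382 genes with as many UMIs (all genes 32.5%).

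Rps27l, a p53-inducible paralog of Rps27, had the widest range when members were ranked by the smaller of their ranges in the 2 libraries (2.41 in control and 1.85 in anti-PD-1). Rpl7l1 had a wider one in control, 2.92, on as few as 4 UMIs in a class. Rps27l took 0.364% of ribosomal UMIs in control macrophages and 0.435% in anti-PD-1 macrophages, against 0.0987% and 0.139% in CD8 T cells. In other T cells, its lowest class, it rested on 41 control UMIs. It was therefore not among the 79 members, and entered the ranking through the classes where it was higher. As CPM it was 673 and 855 in macrophages and 347 and 389 in NK cells. Rps27 went the other way, with 5824 and 4453 CPM in NK cells and 2149 and 2238 in macrophages. It took its largest share in other T cells, 1.94% and 1.72%, and its smallest in macrophages, 1.16% and 1.14%. The pair thus had its high and low classes exchanged. Both genes were ranked among members whose end classes repeat, so finding this in both libraries adds no support. Among members, only Rps27l and Rpl7l1, another paralog, were higher as CPM in both myeloid classes than in every lymphoid class in both libraries (2 of 81, all genes 17%). The reverse, lower in both myeloid classes, held for 49 of 81 (all genes 16.8%). Rpl7l1 had only 4 to 163 UMIs per class and library, so its place among the higher ones is not secure.

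Described next are 10 members of wide range whose highest and lowest classes were each the same in both libraries. Some members of wider range, such as Rps29 and Rps28, did not repeat their end classes. Of the 10, 5 besides Rps27l had their largest share of ribosomal UMIs in a myeloid class. Rpl10 was highest in monocytes (2.32% and 1.71%) and lowest in regulatory T cells (0.914% and 0.888%). Rps27a, made as a fusion with ubiquitin, was highest in monocytes (2.53% and 2.39%). Rps25, a small-subunit protein used in internal initiation on some viral messages, had 1.19% and 1.09% in macrophages and 0.629% and 0.646% in regulatory T cells. Rps2 and Rpl31 shared these end classes with it. Regulatory T cells were therefore the low end for each of these 5 genes on this scale. As CPM of all UMIs, the mean of the myeloid classes minus that of the lymphoid ones was taken over both libraries. It turned for Rps2 (-0.37 on the log2 scale) and Rpl31 (-0.20), and was 0.17 for Rpl10, 0.092 for Rps25 and 0.031 for Rps27a. The lymphoid mean takes in the low regulatory T cells. In control, NK cells were above both myeloid classes as CPM for Rpl10, Rps25 and Rps27a.

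The other 4 had their largest share in a T cell class, but not all were high in every lymphoid class. In anti-PD-1 monocytes Rps27 took 1.59%, above all lymphoid classes but other T cells. Rpsa took 1.10% in both monocytes and NK cells of anti-PD-1. Rpl13a, a large-subunit protein that also acts in the interferon-gamma-activated inhibitor of translation complex of myeloid cells, took 3.41% and 4.20% in CD8 T cells and 1.80% and 1.66% in monocytes. As CPM it was 11686 and 11850 in CD8 T cells, one of few members not lower there in anti-PD-1. Rpsa, which joins the small subunit and is also known as the laminin receptor, had 1.42% and 1.58% in regulatory T cells and 0.744% and 0.859% in macrophages. Rps15a, whose annotated start opens an 8-base pyrimidine run, had 2.94% and 2.70% in regulatory T cells and 1.53% and 1.52% in macrophages. Rps27 is described above. At the other extreme Rpl27a, Rps15, Rps16 and Rpl6 had ranges of at most 0.19 in both libraries: Rps15, for one, lay between 0.904% and 1.05% of ribosomal UMIs in every class.

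**Figure D5:**
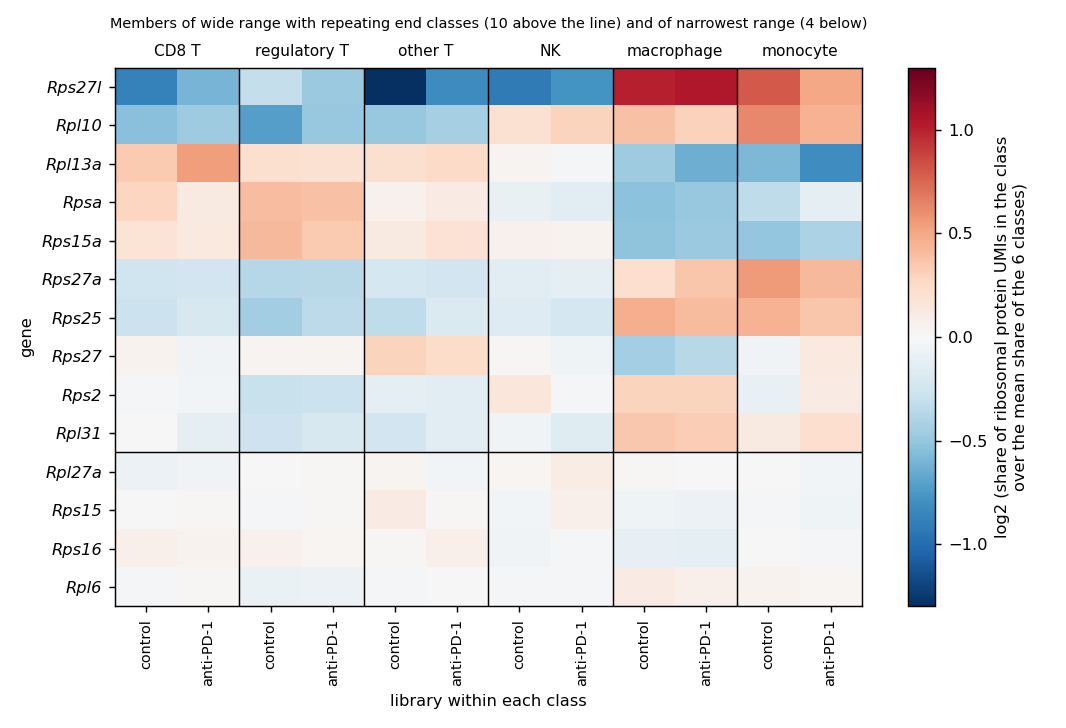
Log2 of each member's share of ribosomal protein UMIs in a class over its mean share in the 6 classes (colour), for 10 members of wide range with the same end classes in both libraries and the 4 with the narrowest range (rows) in both libraries of each class (columns). Rps27l is red in macrophages and blue in CD8 T, other T and NK cells, and the 4 lowest rows are pale throughout.

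Among other paralogs, Rpl22l1 had 687 and 862 CPM in macrophages and 1895 and 1568 in NK cells, and Rpl22 had 1000 and 1060 in macrophages and 1820 and 1581 in NK cells. Both were higher in NK cells. Rpl7 had 1778 and 1689 CPM in macrophages and 3363 and 3208 in NK cells, and Rpl7l1 had 93.6 and 79.0 CPM in macrophages against 40.8 and 47.6 in NK cells. Rpl39l, a paralog known from testis, had 1 UMI in control and 15 in anti-PD-1. Rpl10l, known from the male germ line, had none in 4718746 and 12068667 UMIs.

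Rpl3l, the striated-muscle paralog of Rpl3, had 6 UMIs in control and 57 in anti-PD-1, most of them in 2 classes. In anti-PD-1, 32 were in monocytes (19.0 CPM, interval 13.0 to 26.8) and 20 in neutrophils (43.0 CPM, interval 26.2 to 66.4). In control, 4 of 6 were in monocytes (7.77 CPM). NK cells, regulatory T cells and other T cells had none in either library; in anti-PD-1 the limit of 3 UMIs is 1.81, 3.12 and 6.72 CPM there. On GRCm38, Rpl3l lies at chromosome 17, 24727826 to 24736143, and Msrb1, a selenoprotein gene, begins 449 bases after its end. Msrb1 had the same 2 leading classes, with 1642 CPM in monocytes and 3332 in neutrophils of anti-PD-1 and 84.0 in CD8 T cells. Whether the Rpl3l UMIs come from transcripts of its neighbour was not tested.

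Neutrophils, taken in anti-PD-1 where 205 were found, were lower than monocytes for all 81 members (all genes 77.2%), with a median log2 ratio of CPM of -2.74 against -1.09 over all 3564 genes. S100a8 and S100a9 held 20.9% of neutrophil UMIs, and without them the ribosomal share was 4.94%. Members differed widely in how far they were down. Rpl10a had 51.6 CPM in neutrophils and 1887 in monocytes, and Rpl3 had 73.0 and 2284. Rps27, in contrast, had 2735 and 3435 CPM and Rps9 2451 and 4128. As a share of ribosomal UMIs, Rps27 was thus higher in neutrophils by a log2 ratio of 2.14 (interval 2.05 to 2.22) and Rpl10a was at -2.73 (interval -3.37 to -2.15). The neutrophil total is 18183 ribosomal UMIs, so the low members rest on few counts: 24 for Rpl10a and 34 for Rpl3.

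Genes related to the ribosome were set beside the members. Other TOP and translation genes together were at -0.21 in CD8 T, -0.18 in other T, -0.13 in NK and -0.11 in regulatory T cells, and at -0.04 in macrophages and 0.00 in monocytes. Of those measured, 14 of 23 were lower in CD8 T cells (all genes 40.7%) and 17 of 23 were higher in monocytes (all genes 59%). The median gene of this list was at -0.13 in CD8 T, -0.051 in other T, -0.015 in NK and -0.051 in regulatory T cells, at -0.0051 in macrophages and at 0.17 in monocytes. The sums were thus lower than the medians in all 6 classes. Ribosome biogenesis genes, which act in the nucleolus, were at -0.03 in CD8 T cells and 0.01 in NK cells with 10 of 20 (all genes 40.7%) and 8 of 14 (all genes 32.4%) lower. In regulatory T cells they were at 0.30, with 5 of 6 measured genes higher (all genes 57.5%). In other T cells the biogenesis genes were at -0.0072, with only 2 measured. In macrophages they were at -0.083 (interval -0.20 to 0.029), with 4 of 7 higher (all genes 56.4%). In monocytes they were at -0.12 (interval -0.26 to 0.022), with 1 of 7 higher (all genes 59%). Mitochondrial ribosomal proteins were not lower as the cytosolic ones were: their sum was at 0.26 in CD8 T, 0.10 in NK, 0.095 in other T and 0.047 in regulatory T cells, and at 0.17 in each myeloid class. Higher were 49 of 70 in CD8 T cells (all genes 59.3%), 42 of 56 in NK cells (all genes 67.6%), 9 of 17 in other T cells (all genes 65.3%) and 26 of 41 in regulatory T cells (all genes 57.5%). Higher in the myeloid classes were 36 of 46 in macrophages (all genes 56.4%) and 43 of 55 in monocytes (all genes 59%). The lymphoid counts were nearer to the background than the myeloid ones, and the median of the list in NK cells, 0.11, was below the 0.13 of all genes.

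Of the 303 other genes with enough UMIs in all 6 classes, those whose log2 CPM most resembled the ribosomal total over the 12 class and library values were Eef1a1 (Pearson r 0.99), Eef1b2 (0.97), Gm9493 (0.96), Pabpc1 (0.94) and Gnb2l1 (0.94). Eef1a1 and Eef1b2 encode elongation factor subunits, Pabpc1 the poly(A)-binding protein and Gnb2l1 the ribosome-bound scaffold RACK1. The 12 values share their libraries and the 2 conditions.

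Symbols of processed copies, such as Rpl10-ps3, were not members. The 18 such symbols and close relatives held 34223 UMIs in control and 76175 in anti-PD-1, or 2.70% and 2.53% of the members' total. Only symbols that carry a parent gene's name were counted, so any copies under other symbols are left out here and below. Several copies differed from their parent gene between the libraries. Rpl10-ps3 was at -0.97 in CD8 T cells and -0.84 in macrophages, where Rpl10 was at -0.47 and -0.26. Rpl13a-ps1 was at -0.70 and -1.05, where Rpl13a was at 0.02 in both classes. Reads that fit a gene and its copy equally may not be placed, and the effect of the copies was measured by adding them to their parent: Rpl10 then had -0.55 in CD8 T cells, and Rpl13a had 0.01. Adding copies turned Rpl27 in NK cells from 0.01 to -0.05 and turned no other value of the 14 parents in the 6 classes. The largest moves were those of Rps12 in monocytes, from 0.56 to 0.74, and of Rpl10 in regulatory T cells, from -0.08 to -0.18.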

How the data were processed

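The 2 deposited matrices of UMI counts (1 control, 1 anti-PD-1) were used; per the submitters' processing notes the authors made these counts with Cell Ranger 2.1 on mm10. Coordinates and coding lengths came from GENCODE vM21 and RefSeq on GRCm38. Barcodes with at least 1000 UMIs and at most 10% mitochondrial UMIs were kept. Cells were gated on raw UMIs of marker genes, for example at least 2 UMIs of Cd3d, Cd3e and Cd3g for T cells and at least 4 of C1qa, C1qb, C1qc and Ms4a7 for macrophages. T cells were split by Cd8a and Cd8b1 and by Foxp3 or 4 UMIs of regulatory markers. No doublet caller was run; cells passing gates of unlike classes were left out. The gate minimums were set after seeing the data, and the members and lists were chosen with earlier results of these data known. UMIs were summed per class and library and given as CPM or as a share, with 95% exact binomial intervals (Clopper-Pearson, and the conditional form for ratios). The functions were tested on simulated data. A gene counted as measured with at least 50 UMIs in the higher library. Named members were the 12 widest and 4 narrowest in range over classes (the 12 with repeating end classes), the 4 highest and 4 lowest ratios per class, the P stalk, Rpsa and the paralogs; of the 12, 10 are given, and a few members are not reported here; other members named in the text were singled out after their values were seen. With 1 library per condition no test was made. Alternatives changed the filters, gate, denominator, weighting, free RNA and cycling cells. Python 3.11.15, numpy 2.4.6, scipy 1.17.1 and pandas 2.3.3 were used.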

Additional observations from a re-analysis of the deposited data

Results flagged for a closer look

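Between groups of cells under the same contrast, the ribosomal protein share moved in opposite directions. The log2 ratio of anti-PD-1 over control was -0.28 in CD8 T cells, -0.26 in other T cells, -0.20 in NK cells and -0.039 in regulatory T cells, all lower, and 0.091 in macrophages and 0.19 in monocytes, both higher. The difference between these classes was not tested, since each condition has 1 library. The values for regulatory T cells, macrophages and monocytes turned under some settings, as given next.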

How the results depend on the processing

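No paired analysis was possible because each condition has 1 library. Values are log2 ratios; macrophages, monocytes and T cells are the gated classes. With at least 2000 UMIs per cell, the ratio between libraries was -0.30 in CD8 T, 0.027 in regulatory T, -0.19 in NK cells and 0.21 in monocytes, and that over T cells was 0.39 in NK cells (control) and 0.23 in NK cells, -0.49 in macrophages and -0.35 in monocytes (anti-PD-1). With at most 5% mitochondrial UMIs, the first was 0.047 in macrophages and 0.17 in monocytes, and the second -0.60 in macrophages (control) and -0.51 in macrophages and -0.35 in monocytes (anti-PD-1). With mitochondrially encoded genes out of the denominator, these were 0.10 and 0.20, and -0.46 in macrophages and -0.33 in monocytes (anti-PD-1). As the mean of per-cell shares, the ratio between libraries was -0.26 in CD8 T, -0.083 in regulatory T, -0.24 in other T cells, 0.064 in macrophages and 0.027 in monocytes. Over T cells it was 0.32, -0.64 and -0.52 (control) and 0.18, -0.51 and -0.44 (anti-PD-1) in NK cells, macrophages and monocytes. With free RNA (2.13% and 4.81% of T cell UMIs) subtracted, the values were -0.27 in CD8 T, -0.19 in NK cells and 0.20 in monocytes, and over T cells -0.63 in macrophages and -0.60 in monocytes (control) and 0.22 in NK cells, -0.49 in macrophages and -0.36 in monocytes (anti-PD-1). Under the stricter gate they were -0.26 in CD8 T, -0.11 in regulatory T, -0.28 in other T, -0.23 in NK cells, 0.022 in macrophages and 0.035 in monocytes. Over T cells that gate gave 0.34, -0.63 and -0.51 (control) and 0.17, -0.55 and -0.42 (anti-PD-1) in NK cells, macrophages and monocytes.

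Without cycling cells, the ratio between libraries was -0.073 in regulatory T, -0.21 in other T cells, 0.10 in monocytes and, turned, -0.00011 in macrophages. Over T cells it was -0.60 in monocytes (control) and 0.20 in NK cells, -0.58 in macrophages and -0.45 in monocytes (anti-PD-1). Among cells of 2000 to 4000 UMIs only, a setting chosen after seeing the data, it was -0.32 in CD8 T, -0.12 in other T and -0.18 in NK cells, and it turned to 0.0084 in regulatory T cells, -0.0072 in macrophages and -0.32 in monocytes. Also chosen after seeing the data were CD8 T cells without Gzmk (-0.21), NK cells without Gzmc to Gzmg (-0.27) and monocytes without S100a8 (-0.091, turned). In some of these settings a class had fewer than 50 control cells: 42 other T cells at 2000 UMIs, 43 CD8 T and 49 other T cells under the stricter gate, 48 CD8 T cells without Gzmk, and 40 CD8 T, 36 other T and 25 macrophages at 2000 to 4000 UMIs. The cause of the turns was not tested beyond these splits.

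On the CPM scale 15 members ranged over more than 2-fold between classes in both libraries, and the myeloid minus lymphoid difference turned for Rps2 (-0.37) and Rpl31 (-0.20). As a share of ribosomal UMIs, members past 1.5-fold between libraries were 1 lower in CD8 T, NK, macrophage and other T classes, 1 higher in other T cells and 3 higher in monocytes, and Rpl41 in other T cells turned to 0.26. With at least 2000 UMIs, 1 member was lower and 1 higher in other T cells and 1 higher in macrophages, and Rpl41 in other T cells was 0.17. With free RNA subtracted, 1 was higher in macrophages and Rpl41 in other T cells was 0.028. Without cycling cells, 9 were lower in CD8 T cells, 1 lower in macrophages and 2 higher in monocytes, and the ratio turned for Rpl38 (-0.093) and Rpl41 (-0.25) in CD8 T cells, Rpl15 in other T cells (-0.028) and Rpl27 in NK cells (-0.029). In CD8 T cells the main setting had 3 members lower past 1.5-fold, against the 9 without cycling cells. No all-gene share is given for these alternative settings, so their counts past 1.5-fold cannot be set against a background. Depth limits the low members: Rpl3l, Rpl39l and Rpl7l1 cannot be ranked between most classes.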
